A study of Mus musculus with 47 samples.

Results

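The nuclear genes of the respiratory chain and the ATP synthase were examined in the hypothalamus of male ob/ob mice, which lack functional leptin, after a single icv (intracerebroventricular) injection of FGF1 or vehicle. Members were the rows of the bulk count table whose symbol begins with Nduf, Uqcr, Cox4 to Cox8 or Atp5, together with Sdha, Sdhb, Sdhc and Sdhd. This gave 89 of 14221 genes. They comprised 46 genes of complex I, 4 of complex II, 8 of complex III, 14 of complex IV and 17 of complex V. The symbols of complex I covered 7 core subunits, 30 accessory subunits, 8 assembly factors named Ndufaf and the paralogue Ndufa4l2. No further filter on low counts was applied to the deposited table, so all 89 members entered every test. The lowest total of a gene in it was 307 counts over all libraries. None of the 13 listed symbols of subunits encoded by mitochondrial DNA was in the table.

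The 47 mice carried the ob/ob genotype in all groups, were given an age of 11 weeks in the labels, and contributed 1 mRNA library each. On Day 1 after injection, 10 mice had received 3 µg FGF1 and 4 had received vehicle. On Day 5 there were 9 FGF1-treated mice, 7 vehicle-treated mice labelled non-diabetic and 7 vehicle-treated mice labelled diabetic. On Day 42 there were 5 mice per group. The vehicle-treated mice of Days 1 and 42 were labelled non-diabetic. The study's text counts fewer vehicle-treated mice on Day 5 than the labels and states that mice without diabetes were left out, so what the label non-diabetic means is uncertain. All 47 mice were grouped as labelled, and the vehicle-treated mice were labelled as pair-fed (PF) to FGF1. The study's methods give pair-feeding for the 5 days after injection. Different mice were killed on each day. Every library of a day carried the same 1 of 3 preparation codes. Day and preparation therefore cannot be told apart, but each comparison of FGF1 with vehicle lay within 1 preparation. In bulk tissue, fewer cells of a type and less RNA per cell cannot be told apart either.

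The respiratory chain passes electrons from NADH (complex I) and succinate (complex II) through ubiquinone to complex III, then through cytochrome c to complex IV, which reduces oxygen. Complexes I, III and IV pump protons across the inner mitochondrial membrane, and complex V, the ATP synthase, uses the returning protons to make ATP. In brain most of this ATP is spent on ion gradients and synaptic transmission. Core subunits carry the redox centres or catalytic sites, accessory subunits stabilise the complex, and assembly factors help to build it without remaining in it.

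The base composition of the members' mRNAs is shown first, because the spread between mice followed it on Days 1 and 42. Ndufs7 and Ndufs1 are both core subunits of complex I that hold iron-sulfur clusters. Ndufs7 lies on chromosome 10 (80249121 to 80256794, plus strand, GRCm38) and Ndufs1 on chromosome 1 (63143596 to 63176833, minus strand). A stretch of 180 coding bases that ends at base 480, counted from the A of the start codon, is given with G and C in capitals. In it 61.7% of the bases are G or C in Ndufs7 and 44.4% in Ndufs1.
Ndufs7: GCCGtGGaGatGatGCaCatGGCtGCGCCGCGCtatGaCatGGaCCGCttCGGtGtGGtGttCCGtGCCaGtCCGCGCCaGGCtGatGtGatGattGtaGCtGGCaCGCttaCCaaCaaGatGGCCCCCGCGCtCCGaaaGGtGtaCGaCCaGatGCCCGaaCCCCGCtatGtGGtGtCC
Ndufs1: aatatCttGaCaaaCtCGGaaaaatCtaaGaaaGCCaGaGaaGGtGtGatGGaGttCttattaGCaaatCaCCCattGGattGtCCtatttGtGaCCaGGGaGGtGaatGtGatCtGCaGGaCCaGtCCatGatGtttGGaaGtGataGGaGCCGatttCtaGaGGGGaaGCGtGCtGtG

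Over the whole coding sequence the members ranged from 42.0% G+C in Atp5s to 67.4% in Ndufaf8, with a median of 53.0%, close to the 53.1% of 13984 genes of the table with an annotated coding sequence. Their coding sequences were short, with a median of 432 bases against 1440, and their mean level was a median of 65.4 CPM (counts scaled to library size with TMM factors) against 31.4 CPM. The sequences are those of the GENCODE vM21 annotation.

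Levels can be compared between genes only per length, and are given in CPM per kilobase (kb) of the union of exons for the 7 non-diabetic vehicle-treated mice of Day 5. The catalytic core of the ATP synthase stood high: Atp5a1, its alpha subunit, was at 356.5 ± 10.7 CPM per kb (SD, n = 7) and Atp5b, its catalytic beta subunit, at 289 ± 10.5 CPM per kb. Cox8a, the ubiquitous form of a small complex IV subunit, was at 330 ± 18.6 CPM per kb. The median member of complex IV was at 107 ± 3.64 CPM per kb, of complex III at 75.0 ± 3.16, of complex II at 64.7 ± 1.76, of complex V at 45.5 ± 3.09 and of complex I at 39.4 ± 1.24. The order of complexes II, III and V, and the values of single genes, depend on the length used, since with the longest transcript the median of complex V was 134 CPM per kb, above complex III at 128 and complex II at 91.2. Atp5b was then at 640 CPM per kb, above Atp5a1 at 418.

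Tissue forms of a subunit stood far below the widely expressed forms. Cox6a1, the widely expressed form of its subunit, was at 212 ± 11.7 CPM per kb, and its heart and muscle form Cox6a2 at 6.44 ± 0.471. Cox7a2 was at 119 ± 6.01 CPM per kb, Cox7a2l, a relative that takes part in joining complexes into supercomplexes, at 108 ± 5.20, and the heart and muscle form Cox7a1 at 3.15 ± 0.764. The testis form Cox6b2 was at 1.23 ± 0.319 CPM per kb, beside 210 ± 10.0 for Cox6b1, a pair named here after its values were seen. Ndufa4, now known as a subunit of complex IV despite its symbol, was at 127 ± 8.73 CPM per kb and Ndufa4l2, its hypoxia-inducible paralogue, at 1.74 ± 0.510. Atp5g1, Atp5g2 and Atp5g3 encode the same mature c subunit of the ATP synthase ring, and Atp5g3 stood at 64.4 ± 1.504 CPM per kb, above Atp5g1 at 22.6 ± 1.15 and Atp5g2 at 20.3 ± 0.838. With the longest transcript Atp5g3 was at 194 CPM per kb, Atp5g2 at 45.2 and Atp5g1 at 23.5, so the order of the last pair turned. Atp5g1 has a nearly identical copy in Gm10039 and Atp5g2 in Gm10175 and Gm10231, but none was found for Atp5g3. The levels of Atp5g1 and Atp5g2 are therefore uncertain where reads were shared.

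On Day 1 the members moved in both directions. With the edgeR quasi-likelihood F test on all 47 libraries and Benjamini-Hochberg adjustment over 14221 genes, 7 of 89 members rose and 11 fell at an adjusted p under 0.05. Over all genes 23.4% rose and 21.6% fell, so the members were called less often than the table as a whole, a comparison that was not tested. The median log2 fold change (FC) of the members was -0.02, and that of all genes was 0.01. Leaving out 1 vehicle-treated mouse moved the median of the members to 0.0059 (without replicate 27), -0.0064 (without replicate 30), -0.0121 (without replicate 28) or -0.0503 (without replicate 29), so its sign rested on single mice. Only Cox7a1 also passed an absolute log2 FC of 0.5, as did 19.5% of all genes. By complex, 3 members of complex I rose and 4 fell, 1 of complex II rose and 1 fell, none of complex III passed, 2 of complex IV fell, and in complex V 3 rose and 4 fell. The medians ran from -0.04 for complex IV to 0.01 for complex V.

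The clearest differences of Day 1 were Cox7a2l and Sdha. Cox7a2l was at 121, 113, 101 and 113 CPM in the vehicle-treated mice and at 78.1 to 101 CPM with a median of 89.3 in the 10 FGF1-treated mice. All FGF1-treated mice lay below all vehicle-treated mice, the log2 FC was -0.33 ± 0.07 (SE), and the adjusted p was 5.9e-05. The annotated gene Gm6969 is nearly identical to Cox7a2l in coding sequence, so the value is uncertain where reads were shared. Sdha, the flavoprotein of complex II that oxidises succinate, was at 689, 751, 711 and 746 CPM with vehicle and at 590 to 688 CPM with a median of 645 with FGF1. Again the groups did not overlap, and the log2 FC was -0.18 ± 0.04 with an adjusted p of 0.00094. With quantile normalization Sdha did not pass, at -0.10. These were the only 2 of 89 members for which all FGF1-treated mice lay below all vehicle-treated mice on Day 1, as did 6.81% of all genes, and no member showed the opposite.

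**Figure D1:**
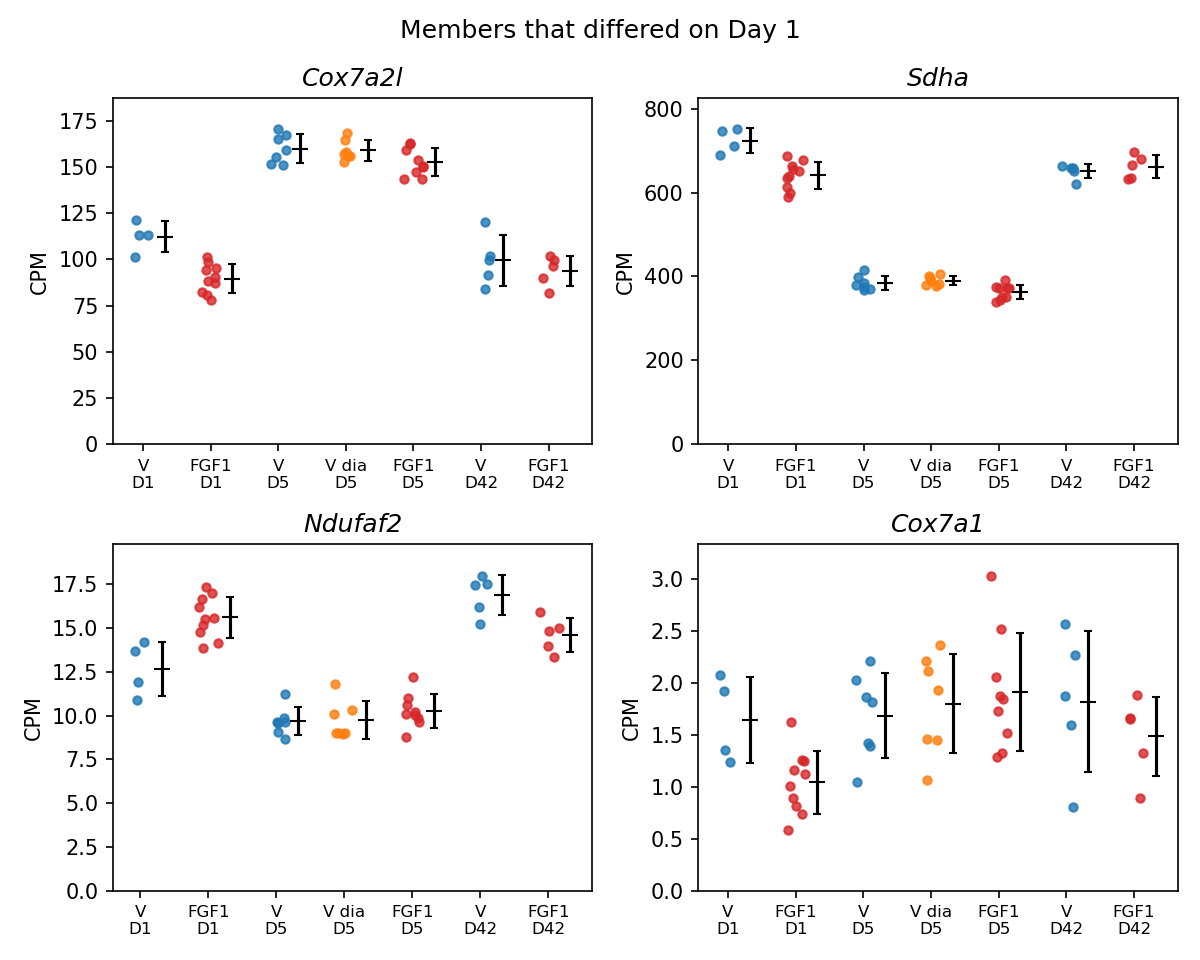
CPM of Cox7a2l, Sdha, Ndufaf2 and Cox7a1 in each mouse (points) of the 7 groups, with mean and SD (black). V, vehicle-treated mice labelled non-diabetic. V dia, vehicle-treated mice labelled diabetic. D, day. On Day 1 the FGF1-treated mice lie below the vehicle-treated mice for Cox7a2l and Sdha, and the groups overlap for Ndufaf2 and Cox7a1.

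Of the other subunits of complex II, 1 was called on Day 1. Sdhc, one of its membrane anchors, was at 101, 83.9, 83.8 and 97.1 CPM with vehicle and at 87.7 to 112 CPM with FGF1, and it rose, with a log2 FC of 0.16 ± 0.06 and an adjusted p of 0.026. Sdhb, which holds the iron-sulfur clusters, had a log2 FC of 0.05 ± 0.08 with an adjusted p of 0.69, and Sdhd, the other anchor, one of -0.06 ± 0.05 with an adjusted p of 0.26. The mice of the 2 groups overlapped for Sdhc, and 2 of the 4 vehicle-treated mice lay within the FGF1 range. The call of Sdhc was lost without vehicle replicate 28 or 29 (0.12 each), with DESeq2 (0.11) and with quantile normalization (0.15), and with a covariate for base composition described below it was at 0.10.

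In complex I, Ndufb4, an accessory subunit, fell on Day 1 by 0.32 on the log2 scale (SE 0.08, adjusted p 0.0016), from 11.8 to 13.7 CPM with vehicle to a median of 10.2 CPM with FGF1. FGF1 replicate 17, the library with the fewest counts, was its highest value at 15.5 CPM. Reads of Ndufb4 may be shared with Ndufb4c, which is nearly identical. Of the 8 assembly factors 2 rose and the others did not pass. Ndufaf2 was at 14.2, 13.7, 10.9 and 12.0 CPM with vehicle and at 13.9 to 17.3 CPM with FGF1, with a log2 FC of 0.31 ± 0.08 and an adjusted p of 0.0011. Ndufaf4 rose with a log2 FC of 0.28 ± 0.11 and an adjusted p of 0.032, a call lost without vehicle replicate 27 (0.21) or 30 (0.23) and with DESeq2 (0.24). With quantile normalization neither passed, at 0.18 for Ndufaf2 and 0.22 for Ndufaf4. The groups overlapped for each of these factors, and Ndufaf2 shares exonic sequence with B230220B15Rik on the other strand. Among the 7 core subunits Ndufv2 alone passed, with a log2 FC of -0.17 ± 0.05 and an adjusted p of 0.010, and it was lost without vehicle replicate 28, at -0.08.

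In complex IV, the heart and muscle form Cox7a1 was at 1.92, 1.24, 1.35 and 2.08 CPM with vehicle and at 0.584 to 1.62 CPM with FGF1 on Day 1, a log2 FC of -0.62 ± 0.23 with an adjusted p of 0.024. The call was lost without vehicle replicate 27 (log2 FC -0.54), without vehicle replicate 30 (log2 FC -0.49) and with quantile normalization (log2 FC -0.41). Cox6a2 had a log2 FC of -0.83 ± 0.36 and an adjusted p of 0.057. It passed with DESeq2 (-0.86), without vehicle replicate 29 (-0.96), without the shallowest FGF1 library (-0.87) and with the covariate for base composition (-1.11). Of 8 striated muscle markers 2 were in the table, at a summed 2.46 to 4.57 CPM with vehicle and 0.815 to 3.58 CPM with FGF1, and their part in these values was not tested. In complex V, Atp5g1 was at 79.4, 58.8, 74.2 and 85.6 CPM with vehicle and at 72.1 to 103 CPM with FGF1, and it rose with a log2 FC of 0.23 ± 0.08 and an adjusted p of 0.015. Without vehicle replicate 28 it did not pass, at 0.13, and it has a nearly identical copy, Gm10039. Its paralogue Atp5g3 fell, with a log2 FC of -0.22 ± 0.07 and an adjusted p of 0.013, and without vehicle replicate 28 it was at -0.04 and did not pass. Atp5e, the epsilon subunit of the ATP synthase stalk, rose with a log2 FC of 0.26 ± 0.10 and an adjusted p of 0.037. That call was lost without vehicle replicate 28 (0.19) or 29 (0.22), without the shallowest FGF1 library (0.24) and with DESeq2 (0.21) or quantile normalization (0.23), and with a covariate for base composition described below Atp5e was at 0.14.

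The number of members called on Day 1 rested on the scaling and on single libraries. With DESeq2, whose size factors moved the median of the members to -0.07, 2 members rose and 21 fell, where 20.2% of all genes rose and 26.4% fell. Without vehicle replicate 28 the edgeR counts were 3 and 4, where 2731 of 14221 genes rose and 2279 fell. Fitted on the libraries of Day 1 alone, where 17.4% of all genes rose and 15.6% fell, Ndufaf2 rose, and Cox7a2l, Sdha, Cox7a1 and Atp5s, known as coupling factor B of the ATP synthase and named here after its values were seen, fell.

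**Figure D2:**
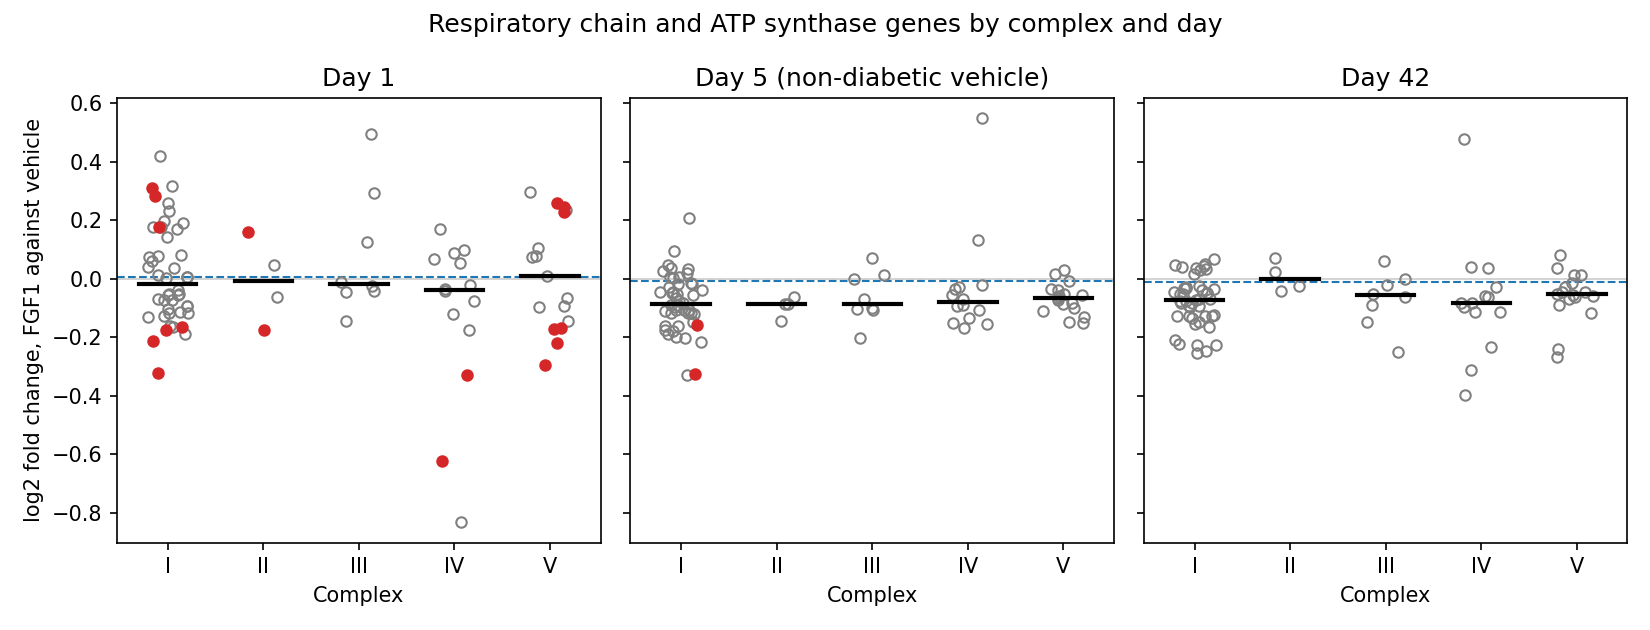
Log2 FC of FGF1 against vehicle for each of the 89 members (circles) by complex on Days 1, 5 and 42, from the edgeR fit. Filled red circles passed an adjusted p of 0.05, black bars are medians of a complex, and the dashed line is the median of all genes. Members scatter to both sides on Day 1, whereas on Day 5 the bars of all 5 complexes lie between -0.09 and -0.06.

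On Day 5 most members were slightly lower after FGF1. Relative to vehicle-treated mice labelled non-diabetic, 73 of 89 members had a log2 FC below 0 (82.0%, against 52.2% of all genes), and the median was -0.08 against -0.01 for all genes. The same count between the vehicle groups of Day 5 is given further below. Taken per mouse, as the median of the members' log2 differences from the mean of these vehicle-treated mice, the 9 FGF1-treated mice lay between -0.15 and -0.02 and the 7 vehicle-treated mice between -0.07 and 0.05, so the groups overlapped. The medians were -0.09 for complexes I, II and III, -0.08 for complex IV and -0.06 for complex V. Inside complex I, all 7 core subunits were below 0 with a median of -0.15, 25 of 30 accessory subunits were below 0, and only 3 of 8 assembly factors were, with a median of 0.02. Differences of this size were called singly for few genes: 2 of 89 members fell and none rose in the fit of all libraries, where 1.40% of all genes fell and 3.25% rose. At an unadjusted p under 0.05, 18 members were lower and 2 higher, and over all genes 988 were lower and 1360 higher.

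The 2 members that fell were accessory subunits of complex I. Ndufb9 was at 126 to 149 CPM with a median of 141 in the 7 non-diabetic vehicle-treated mice and at 98.7 to 120 CPM with a median of 113 in the 9 FGF1-treated mice. The groups did not overlap, and the log2 FC was -0.32 ± 0.10 with an adjusted p of 0.039. Ndufb9 overlaps exons of Gm49356 on the same strand. Ndufa9 was at 90.0 to 103 CPM with vehicle and at 78.5 to 91.1 CPM with FGF1, with overlap, and its log2 FC was -0.16 ± 0.05 with an adjusted p of 0.041. Without the 2 deepest FGF1 libraries of Day 5 neither passed, at log2 FCs of -0.31 and -0.16.

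Day 5 libraries varied less than the others, with a median SD of the members of 0.08 (log2) within groups against 0.18 on Days 1 and 42. A fit on the Day 5 libraries alone called more members. In that fit 27 of 89 members fell and 2 rose, where 9.13% of all genes fell and 11.8% rose. Those that fell were 14 of complex I, 2 of complex II, 2 of complex III, 4 of complex IV and 5 of complex V. They included 5 of the 7 core subunits of complex I and none of the 8 assembly factors. Without the 2 deepest FGF1 libraries the counts in this fit were 23 lower and 1 higher, where 7.03% of all genes were lower and 9.39% higher. The members that rose were Ndufb2, an accessory subunit of complex I, with a log2 FC of 0.22 ± 0.06, and Cox6b2, at 0.55 ± 0.18. Both are named here after their values were seen. Ndufb2 overlaps exons of Gm42420 on the same strand and of Braf and Gm16272 on the other. Cox6b2 was low, at a mean of 2.03 CPM over all 47 libraries.

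For 6 of 89 members all FGF1-treated mice lay below all non-diabetic vehicle-treated mice on Day 5, as did 1.55% of all genes, and no member lay above. They came from 3 complexes, 5 of them are described here, and the values below are log2 FCs from the fit on Day 5 alone. Ndufv1, the complex I subunit that binds NADH, was at 178 to 197 CPM with a median of 185 in vehicle-treated mice and at 154 to 170 CPM with a median of 157 in FGF1-treated mice. Its log2 FC was -0.21 ± 0.03 with an adjusted p of 6.8e-06, and in the fit of all libraries -0.22 ± 0.10 with an adjusted p of 0.25. The error of the Day 5 fit was under that of the fit of all libraries.

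Uqcrc1, a large core protein of complex III on the matrix side, was at 233 to 254 CPM with vehicle and at 192 to 224 CPM with FGF1. Its log2 FC was -0.19 ± 0.03 with an adjusted p of 6.7e-05. Atp5a1 was at 1068 to 1174 CPM with a median of 1112 in vehicle-treated mice and at 935 to 1068 CPM with a median of 1004 in FGF1-treated mice, with a log2 FC of -0.14 ± 0.03 and an adjusted p of 0.00039. Atp5b was at 1169 to 1293 CPM with vehicle and at 1016 to 1151 CPM with FGF1, with a log2 FC of -0.14 ± 0.03 and an adjusted p of 0.0013. Atp5a1 shares exonic sequence with Haus1 on the other strand.

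**Figure D3:**
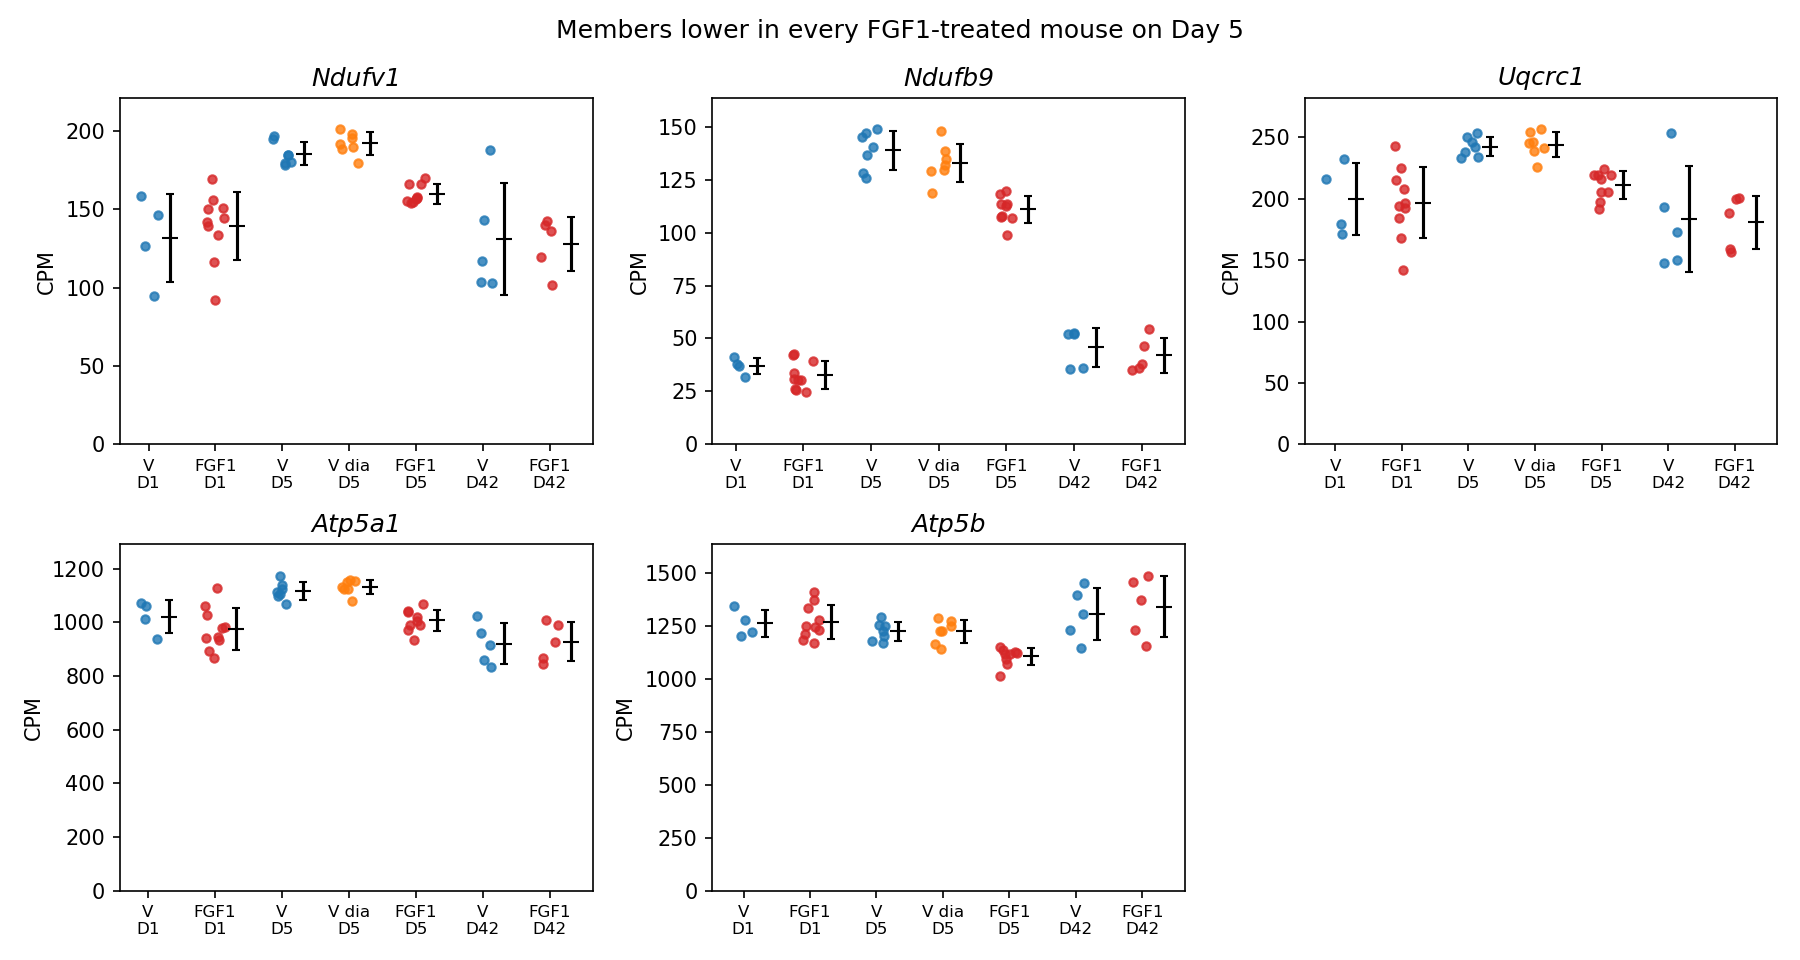
CPM of Ndufv1, Ndufb9, Uqcrc1, Atp5a1 and Atp5b in each mouse (points) of the 7 groups, with mean and SD (black). V, vehicle-treated mice labelled non-diabetic. V dia, vehicle-treated mice labelled diabetic. D, day. On Day 5 each FGF1-treated mouse lies below each vehicle-treated mouse labelled non-diabetic. Ndufb9 is at 37.1 CPM on Day 1 and 139 CPM on Day 5 in non-diabetic vehicle-treated mice.

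FGF1-treated mice of Day 5 were also compared with the vehicle-treated mice labelled diabetic. Both comparisons use the same FGF1-treated mice, so they are not independent. Against diabetic vehicle 65 of 89 members were below 0 (73.03%, against 51.95% of all genes). The median of the members was -0.06, and that of all genes was -0.01. The medians were -0.06 for complex I, -0.10 for complex II, -0.02 for complex III, -0.05 for complex IV and -0.06 for complex V, and with the GC slope described below that of complex III was 0.04. All 7 core subunits of complex I were below 0, as were 4 of its 8 assembly factors. In this comparison Atp5a1 (log2 FC -0.17 ± 0.05, adjusted p 0.015) and Atp5b (-0.15 ± 0.05, adjusted p 0.048) fell, where 3.42% of all genes fell and 5.79% rose. Atp5a1 was at 1080 to 1158 CPM in these vehicle-treated mice. Without the 2 deepest FGF1 libraries neither passed, at -0.16 and -0.14. With Day 5 alone, 30 of 89 members fell and 5 rose, where 14.2% of all genes fell and 16.7% rose. For 4 members, Atp5a1, Ndufb8, Ndufv1 and Uqcrc1, all FGF1-treated mice lay below all of these vehicle-treated mice, as did 2.45% of all genes. The 2 vehicle groups did not differ detectably from each other: no member passed, as no gene of the table did (0%), and no member had an unadjusted p under 0.05, where 83 genes were higher and 110 lower. DESeq2 called no member in this comparison either. Even so, 58 of 89 members were below 0 in diabetic against non-diabetic vehicle (65.17%, against 49.97% of all genes), with a median of -0.02. Members thus leaned to the same side without a difference in treatment. Whether the sign counts after FGF1 exceed this lean was not tested.

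Markers of cell types moved as well. On Day 1, 7 of 8 markers of mature oligodendrocytes fell with a median of -0.73, and 4 of 12 pan-neuronal markers fell and 1 rose with a median of -0.14. Of 10 astrocyte markers 7 fell and 2 rose, and of 8 microglial markers 6 rose and 1 fell. On Day 5, of 12 pan-neuronal markers 10 had a log2 FC below 0 with a median of -0.12, and none passed. Their summed level was 7184 to 7595 CPM with non-diabetic vehicle and 6681 to 7313 CPM with FGF1, with all 12 above 0. Of 8 markers of mature oligodendrocytes 4 rose with a median of 0.37, and their summed level went from 4734 to 6224 CPM with vehicle to 6522 to 7417 CPM with FGF1. Of 8 microglial markers 5 rose with a median of 0.40, and of 10 astrocyte markers 5 rose with a median of 0.16. The part of these shifts in the members' values was not tested.

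On Day 42 no member passed, as no gene of the table did (0%), and at an unadjusted p under 0.05 there were 4 members lower and none higher, against 340 and 436 genes. DESeq2 called no member either. The median of the members was -0.06 against -0.01 for all genes, and 70 of 89 were below 0 (78.65%, against 54.84% of all genes). Complex II stood at a median of 0.00 and complex IV at -0.08. Atp5a1 was at 861, 960, 835, 918 and 1025 CPM with vehicle and at 868, 992, 844, 926 and 1008 CPM with FGF1, with full overlap. For no member did the groups separate, where 0.267% of all genes did. With 1 mouse left out the median of the members stayed below 0. It was lowest, at -0.10, without vehicle replicate 14 and nearest to 0, at -0.0034, without vehicle replicate 16. It was -0.0915 without vehicle replicate 12, -0.0911 without FGF1 replicate 11, -0.0373 without FGF1 replicate 7 and -0.0286 without vehicle replicate 13.

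Whether the response changed with time was tested by subtracting the contrast of one day from that of another. From Day 1 to Day 5 the log2 FC of Cox7a2l rose by 0.26 ± 0.09 (adjusted p 0.023), that of Atp5g1 fell by 0.29 (SE 0.10, adjusted p 0.034) and that of Sdhc fell by 0.22 (SE 0.08, adjusted p 0.034). The changes of Atp5g1 and Sdhc did not pass with DESeq2 (-0.24 and -0.18), with quantile normalization, without vehicle replicate 28 or 29, or without the 2 deepest Day 5 libraries. That of Cox7a2l did not pass without vehicle replicate 27. These were 1 of 89 members higher and 2 lower, where 12.4% of all genes were higher and 14.2% lower. From Day 5 to Day 42 no member passed, where 0.942% of all genes did, and 5 members were higher and 2 lower at an unadjusted p under 0.05. Member by member, the response of Day 5 was thus not shown to differ from that of Day 42.

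The spread between mice of Days 1 and 42 followed the base composition of the members. On those days the median SD within groups was 0.14 (log2) in the 30 members with the lowest coding G+C (42.0% to 50.6%), 0.18 in the next 29 and 0.34 in the 30 with the highest (55.1% to 67.4%). On Day 5 the same 3 sets had 0.08, 0.08 and 0.08. Across the 89 members Spearman's rho of coding G+C with this SD was 0.58 on Days 1 and 42 and 0.02 on Day 5, and across 13984 genes it was 0.20 and 0.19. Genes are not independent replicates, and all share the same libraries. Of the 18 members called on Day 1, 10 lay in the set with the lowest G+C, 7 in the next and 1 in that with the highest.

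**Figure D4:**
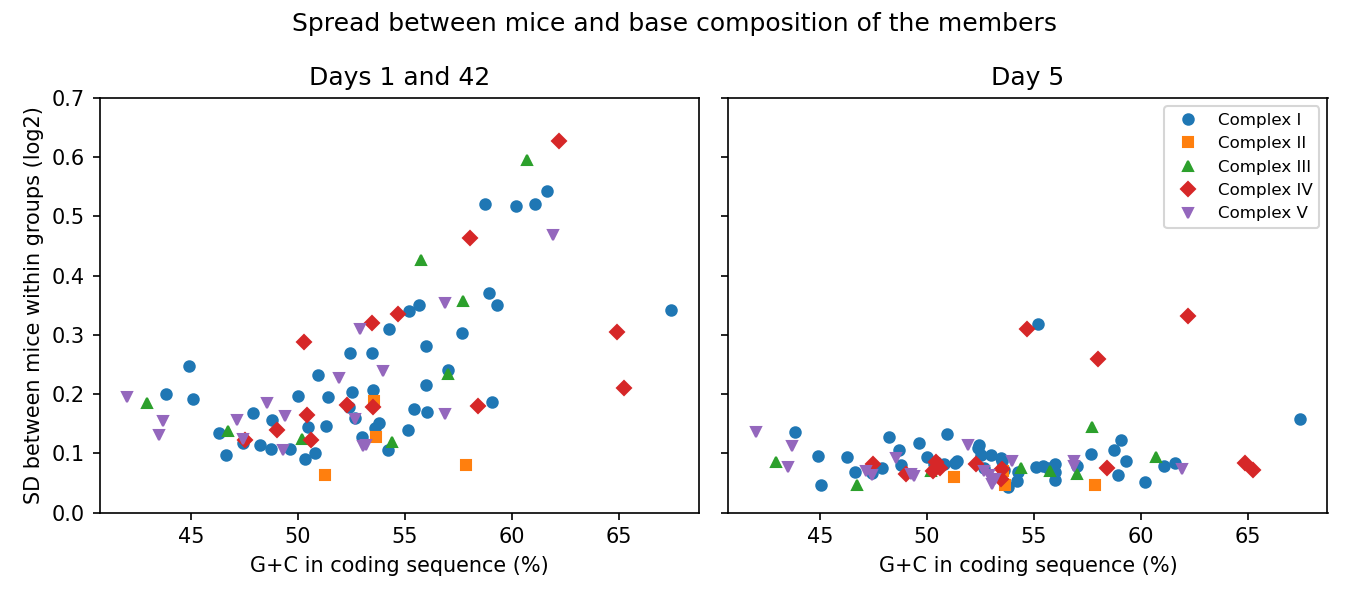
SD of log2(CPM + 0.5) between mice within groups, pooled over the groups of Days 1 and 42 (left) and of Day 5 (right), against the G+C content of the coding sequence for each of the 89 members, marked by complex. The upper right of the left panel holds Uqcr11 at 0.59 and Ndufs7 at 0.54, which on Day 5 lie at 0.09 and 0.08.

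Each library was given a GC slope, the change in log2 CPM per 10 percentage points of coding G+C relative to the mean library, from 13804 genes that are no members. It ran from -0.24 to 0.25 in the vehicle-treated mice of Day 1, from -0.10 to 0.38 in the FGF1-treated mice of Day 1, from -0.37 to 0.23 and from -0.34 to -0.01 in the vehicle-treated and FGF1-treated mice of Day 42, and from -0.08 to 0.03 over all 23 mice of Day 5. Ndufs7, the first sequence printed above, was at 14.2 CPM in vehicle replicate 28 of Day 1 (slope -0.24) and at 33.4 CPM in vehicle replicate 30 (slope 0.25). Ndufs1, the second, was at 316 and 243 CPM in the same mice. Uqcr11, a small subunit of complex III with 60.7% G+C and a nearly identical copy in Gm16418, named here after its values were seen, was at 6.89 and 23.4 CPM there, and at 36.5 CPM in vehicle replicate 16 of Day 42 beside 12.3 to 27.8 CPM in the other 4 vehicle-treated mice.

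**Figure D5:**
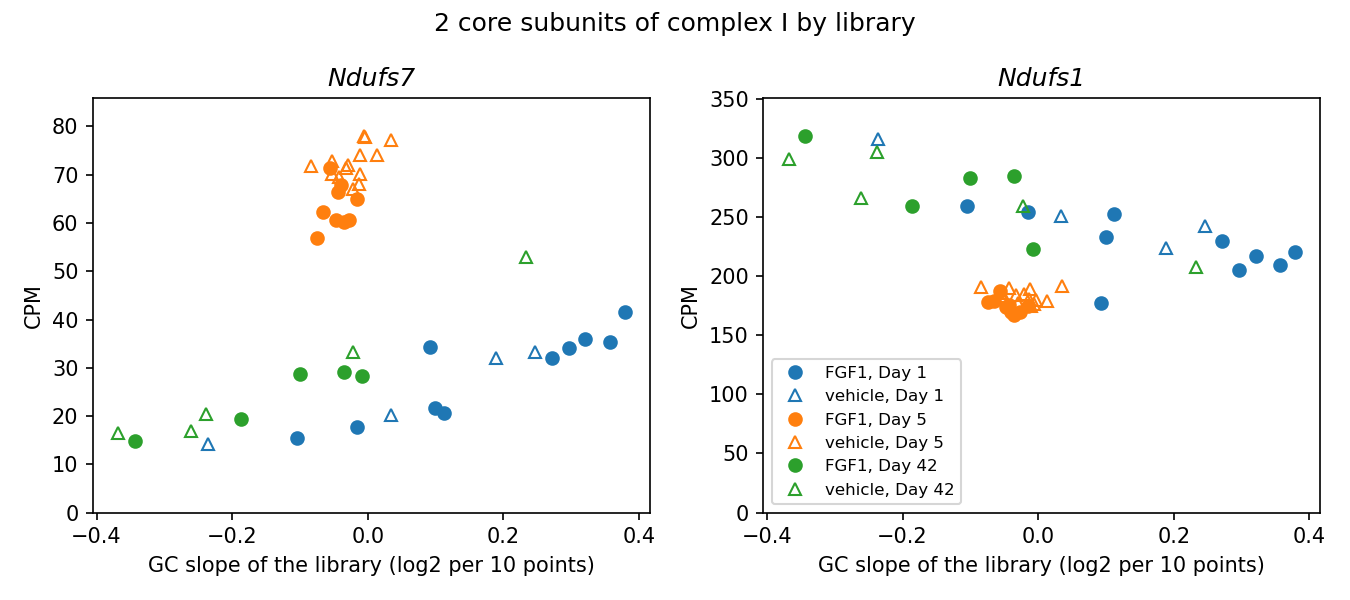
CPM of the GC-rich Ndufs7 (left) and of Ndufs1 (right) in each of the 47 libraries against the library's GC slope, by day (colour) and treatment (filled, FGF1; open triangles, vehicle of either label). On Days 1 and 42 Ndufs7 climbs and Ndufs1 drops along the slope, while the Day 5 libraries lie between -0.08 and 0.03 on it, with Ndufs7 at a mean of 71.9 CPM in non-diabetic vehicle-treated mice.

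With this slope as a covariate, an alternative chosen after seeing the data, the errors of GC-rich members shrank. The SE of Ndufs7 on Day 1 went from 0.22 to 0.07 and its log2 FC from 0.19 to -0.18 (adjusted p 0.025). On Day 1 5 members rose and 17 fell, where 28.4% of all genes rose and 25.4% fell, and the median of the members was -0.07. Cox4i1, an early-assembling subunit of complex IV, then fell by 0.21 (SE 0.06, adjusted p 0.0033) and Uqcrc1 by 0.17 (SE 0.05, adjusted p 0.0022). On Day 5 1 member rose (Ndufb2) and 12 fell, where 6.38% of all genes rose and 4.88% fell. Among those 12 were Ndufv1 (log2 FC -0.20 ± 0.04, adjusted p 0.0012), Uqcrc1 (-0.19 ± 0.04, adjusted p 0.0012), Sdhb (-0.13 ± 0.04, adjusted p 0.025), Atp5a1 (-0.15 ± 0.04, adjusted p 0.011) and Atp5b (-0.14 ± 0.05, adjusted p 0.030). On Day 42 no member passed. What set the slopes was not tested.

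The level of some members also differed by day among non-diabetic vehicle-treated mice. From Day 1 to Day 5, 14 of 89 members were more than 2-fold higher and 1 was more than 2-fold lower, together 16.9% against 20.3% of 13984 genes, so the count was near that of the whole table. From Day 1 to Day 42 no member passed 2-fold in either direction, against 4.17% of these genes. Ndufa13, an accessory subunit of complex I named here after its values were seen, was at 0.254 to 1.04 CPM on Day 1, 112 to 127 CPM on Day 5 and 0.200 to 1.27 CPM on Day 42. It shares exonic sequence with Tssk6 on the other strand, and whether the reads of each day were counted with the same annotation was not tested. Uqcr11 was at 15.8 ± 7.88 CPM on Day 1 (n = 4) and 69.4 ± 5.34 CPM on Day 5 (n = 7), and Ndufb9 at 37.1 ± 3.88 and 139 ± 9.17 CPM. Sdha went the other way, from 724 ± 29.5 to 385 ± 16.9 CPM. Across the 89 members Spearman's rho of coding G+C with the difference from Day 1 to Day 5 was 0.56, and across 13984 genes it was -0.05. These are descriptions, since day and preparation cannot be told apart.

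Other lists of oxidative metabolism are read against the 23.4% of all genes that rose and the 21.6% that fell on Day 1. Of 13 regulators of mitochondrial gene expression 3 rose and 2 fell. Ppargc1a, the coactivator PGC-1alpha, fell by 0.91 (SE 0.12, adjusted p 3.8e-08), its relative Pprc1 rose by 1.19 ± 0.13 (adjusted p 4.7e-10), and the factor Nrf1, named here after its values were seen, rose by 0.25 ± 0.09 (adjusted p 0.019). Of 8 genes for cytochrome c and electron entry 2 rose, Cycs, cytochrome c itself (log2 FC 0.25 ± 0.08, adjusted p 0.0091), and Gpd2, the mitochondrial glycerol phosphate dehydrogenase (0.27 ± 0.10, adjusted p 0.023). On Day 5 none of these 8 passed against non-diabetic vehicle, and 1 rose against diabetic vehicle.

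Factors that build the complexes were called in both directions on Day 1, as were all genes (23.4% rose and 21.6% fell). Of 28 assembly factors of complexes II to V, 6 rose and 5 fell. Bcs1l, which inserts the Rieske protein into complex III, rose by 0.78 ± 0.09 (adjusted p 1.0e-09), and Surf1, an assembly factor of complex IV, fell by 0.35 (SE 0.06, adjusted p 2.3e-06). Of 10 assembly factors of complex I outside the Ndufaf names 2 rose and 3 fell, among them Timmdc1 (0.44 ± 0.08, adjusted p 3.1e-05) and Foxred1, which fell by 0.45 (SE 0.06, adjusted p 1.8e-08). Of 22 translocases of the mitochondrial membranes 8 rose and 4 fell. Of 7 carriers and uncoupling proteins 1 rose, Slc25a5, an ADP/ATP carrier (0.58 ± 0.08, adjusted p 1.7e-07), and 1 fell, Slc25a27.

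The remaining lists gave a scale for the members. Of 77 mitochondrial ribosomal proteins 24 rose and 6 fell on Day 1 with a median of 0.10, led by Mrps6 at 2.00 ± 0.13 (adjusted p 1.1e-17). Of 77 cytosolic ribosomal proteins 32 rose and 2 fell with a median of 0.21, and of 37 proteasome subunits 7 rose and 3 fell. Of 17 genes of the tricarboxylic acid cycle and pyruvate dehydrogenase 4 rose and 2 fell. On Day 5 the medians were -0.04 for mitochondrial ribosomal proteins, -0.05 for cytosolic ribosomal proteins, -0.11 for proteasome subunits and -0.06 for the tricarboxylic acid cycle, beside -0.08 for the members, and 34 of 37 proteasome subunits were below 0. No test compared the lists.

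Promoters were searched for the NRF1 motif (GCGC, any base, then TGCGC) on both strands. It is the binding sequence of Nrf1, found at many nuclear genes for mitochondrial proteins. RefSeq windows of 300 bases (GRCm38.p6) were held for 72 of the 89 members, and 19 of these (26.4%) had a match, against 10.5% of 11167 genes of the table. By complex, 9 of 40 genes of complex I, 2 of 3 of complex II, 1 of 5 of complex III, 1 of 11 of complex IV and 6 of 13 of complex V had one. For the motif CCGGAAG, read by factors of the ETS family such as Gabpa, 18 of 72 members and 18.2% of the genes had a match. The promoter of Sdha, which fell on Day 1, is shown as an example because its RefSeq window holds 3 matches to the first motif. The start of Sdha differs between the annotations, and that of GENCODE vM21 (position 74350280) lies 40 bases upstream of that of RefSeq (position 74350240). The sequence covers the 210 bases of the window before the GENCODE start (chr13:74350281-74350490, minus strand), printed in the direction of transcription. It holds 2 of the matches, in capitals, which begin 58 and 15 bases before that start, and the third match lies between the 2 starts.
Sdha promoter: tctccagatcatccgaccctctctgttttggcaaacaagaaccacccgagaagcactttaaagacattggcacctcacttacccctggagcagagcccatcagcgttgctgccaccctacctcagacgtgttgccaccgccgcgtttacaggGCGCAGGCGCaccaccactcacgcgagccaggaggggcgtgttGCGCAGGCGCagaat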

How the data were processed

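Hypothalamic mRNA of 47 mice was sequenced from strand-specific libraries, and the authors aligned the reads with STAR. The deposited values are raw counts per gene, in whole numbers without normalization. The labels name the build as GRCh38, which was read as GRCm38 since the symbols are of mouse. The counting program is not given in the sources used here. Totals were 1243280 to 47082403 counts per library, and how far depth limited the precision of low members was not tested. The authors' processing notes also name DESeq2.

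From these counts, CPM scaled by TMM factors were computed and a model with 7 group means was fitted to all 47 libraries with edgeR 4.0.16 (R 4.3.3). Contrasts were tested by the quasi-likelihood F test, adjusted by Benjamini-Hochberg over 14221 genes, and called at an adjusted p of 0.05. Per-mouse differences used log2(CPM + 0.5). Alternatives were DESeq2 1.42.0, its size factors, quantile normalization with limma 3.58.1, the filter filterByExpr, fits of 1 day, merged vehicle groups and left-out mice. Coordinates, lengths and coding sequences are from GENCODE vM21 (GRCm38), in which all 89 members were found. Of these, 16 have a nearly identical copy (at least 97% over at least 100 coding bases) and 32 overlap exons of another gene. The scripts were tested on simulated data.

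Members and gene lists were chosen with earlier results of these data known. Named genes are core subunits and paralogue pairs, the 3 called members with the largest change per comparison and direction, those past an absolute log2 FC of 0.5, and up to 3 genes per other list by adjusted p. Each library is from 1 mouse. The p-values set a difference against the spread between mice within groups. In the main fit that spread was estimated jointly over all 47 libraries and 7 groups, so Day 5 was judged partly by the spread of the other days. Values of some members are not reported here.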

Additional observations from a re-analysis of the deposited data

Results flagged for a closer look

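In 3 members the FGF1 effect differed between Day 1 and Day 5 by a test of the difference itself: -0.29 for Atp5g1 (log2, adjusted p 0.034), 0.26 for Cox7a2l (adjusted p 0.023) and -0.22 for Sdhc (adjusted p 0.034), each as Day 5 minus Day 1. The call of Cox7a2l was lost without vehicle replicate 27 of Day 1, at 0.22. Those of Atp5g1 and Sdhc were lost with DESeq2 or its size factors, with quantile normalization, without vehicle replicate 28 or 29 of Day 1, and without the 2 deepest Day 5 libraries.

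Of 140 pairs of a value and a group examined for a single mouse far from the others of its group, 5 were found, and chance alone marks about 1 in 20. Ndufs7 was lowest at 67.1 CPM in 1 vehicle-treated mouse of Day 5 labelled non-diabetic. Sdha was lowest at 621 CPM in vehicle replicate 16 of Day 42, the library with the highest GC slope of its group. Ndufb4 at 15.5 CPM and Cox6a2 at 2.45 CPM were highest in FGF1 replicate 17 of Day 1, the library with 1243280 counts. Cox6a2 was highest at 7.83 CPM in 1 vehicle-treated mouse of Day 5 labelled diabetic. The part of depth or of the GC slope in these values was not tested.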

How the results depend on the processing

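Counts are given as members higher and lower, and the cause of each move was not tested. On Day 1 (7 and 11) they were 2 and 21 with DESeq2 and with its size factors, 2 and 14 with quantile normalization, 1 and 4 on that day's libraries, 0 and 1 with an absolute log2 FC above 0.5, 5 and 17 with the GC slope, and 3 to 7 and 4 to 13 with single vehicle-treated mice left out. On Day 5 (0 and 2) they were 0 and 5 with DESeq2, 1 and 5 with quantile normalization, 1 and 8 with merged vehicle groups, 2 and 27 on that day's libraries, 1 and 23 on these without the 2 deepest FGF1 libraries, 0 and 0 without those 2 libraries or with the log2 FC above 0.5, and 1 and 12 with the GC slope. Against diabetic vehicle (0 and 2) they were 1 and 7 with quantile normalization, 5 and 30 on that day's libraries, 3 and 23 on these without the 2 deepest, 0 and 0 without those 2 or with the log2 FC above 0.5, and 3 and 13 with the GC slope, under which the median of complex III was 0.0428. For the change from Day 1 to Day 5 (1 and 2) they were 2 and 0 with DESeq2 and without the 2 deepest libraries, 0 lower with its size factors, 1 lower with quantile normalization, 0 and 0 with the log2 FC above 0.5, 4 and 5 with the GC slope, and 0 to 1 and 0 to 4 with single mice left out. With the longest transcript as length the medians were 65.1, 91.2, 128, 157 and 134 CPM per kb for complexes I to V. With the GC slope the Day 1 value of Ndufs7, not called at 0.19, was called at -0.175, the only named value that changed sign with a call. Left-out mice of Day 42 gave no call. filterByExpr removed 0 genes, and placing Ndufa4 and Ndufa4l2 in complex IV, leaving out assembly factors and isoforms under 1 CPM, or leaving out the shallowest library moved no count by over 1.5 times. The GC slope and the Day 5 fit without the 2 deepest libraries were chosen after seeing the data. No paired analysis was possible because no replicate number is shared between groups.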
